A study of Mus musculus with 40 samples.

Results

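The 6 genes described here encode the PIDDosome (Pidd1, Cradd and Casp2), the apoptosome (Apaf1 and Casp9) and Casp8, the initiator caspase of the death receptors. They were taken by gene symbol and are 6 of the 18024 genes in the deposited table. The series sequenced RNA of pancreas, kidney, ovary, heart and small intestine from C57BL/6j mice 60 days old, collected 24 hours after acute p53 activation. The comparison asks what loss of Mdm2, the ubiquitin ligase that restrains p53, does to expression in each tissue. Each tissue had 3 libraries of Tg mice, whose genotype is Mdm2+/- Cag-CreERTg, and 5 libraries of FMTg mice, whose genotype is Mdm2FM/- Cag-CreERTg. Both groups therefore carried 1 null allele of Mdm2 and the CreER transgene under the ubiquitous CAG promoter. Tg mice kept a functional copy and FMTg mice had the FM allele in its place. Neither the stretch of Mdm2 lost from the FM allele nor the way CreER was activated is stated in the labels.

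In the PIDDosome, the scaffold PIDD1 binds the adaptor RAIDD (product of Cradd) through death domains, and RAIDD recruits procaspase-2, which is activated by proximity. Active caspase-2 can cleave Mdm2, and the complex responds to DNA damage and to extra centrosomes. In the apoptosome, cytochrome c released from mitochondria drives Apaf1 to form a wheel-shaped platform that activates caspase-9, the initiator of the mitochondrial pathway. Caspase-8 is activated at ligand-bound death receptors, independently of mitochondria. Pidd1 and Apaf1 are both known as transcriptional targets of p53.

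The stretch before the transcription start is shown for Pidd1, called higher in FMTg pancreas and kidney, for Apaf1, called higher in FMTg kidney, and for Cradd, called in no tissue. Each is the 250 bases upstream of the RefSeq gene start on GRCm38.p6, 5′ to 3′ on the gene's strand. Capitals mark GC boxes (GGGCGG, or CCGCCC on the other strand), the element bound by Sp1-type factors.
Pidd1, chr7:141444026-141444275, minus strand: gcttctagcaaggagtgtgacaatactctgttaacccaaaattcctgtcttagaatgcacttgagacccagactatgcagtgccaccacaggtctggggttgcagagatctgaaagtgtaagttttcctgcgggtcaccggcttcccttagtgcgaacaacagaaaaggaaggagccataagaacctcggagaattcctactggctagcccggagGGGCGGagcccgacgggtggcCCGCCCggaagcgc
Apaf1, chr10:91082744-91082993, minus strand: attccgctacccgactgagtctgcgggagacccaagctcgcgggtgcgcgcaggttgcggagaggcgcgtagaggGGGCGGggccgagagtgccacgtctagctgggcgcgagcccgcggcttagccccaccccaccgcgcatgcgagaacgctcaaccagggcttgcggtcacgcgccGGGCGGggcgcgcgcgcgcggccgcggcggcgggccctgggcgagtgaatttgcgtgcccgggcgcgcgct
Cradd, chr10:95324138-95324387, minus strand: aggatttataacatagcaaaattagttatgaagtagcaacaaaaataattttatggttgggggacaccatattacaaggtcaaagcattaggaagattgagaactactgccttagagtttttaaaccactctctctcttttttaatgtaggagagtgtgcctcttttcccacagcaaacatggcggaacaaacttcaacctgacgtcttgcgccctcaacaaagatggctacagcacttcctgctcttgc
Pidd1 and Apaf1 each had 2 GC boxes in this window, Casp9 had 4 and Casp2 had 1. Cradd and Casp8 had none. The Casp8 window (chromosome 1, 58802252 to 58802501) follows the RefSeq start. It lies inside the GENCODE M21 gene, which begins at 58795374, so it is not the stretch before that start. The GENCODE M21 gene of Apaf1 reaches to 91082770 on the minus strand. The last bases of the Apaf1 window, down to 91082744, therefore lie inside that gene. Of the 32851 promoter windows of this length, 32.7% held a GC box. None of the 6 windows held an exact match to the p53 half-site consensus, which 7.13% of all windows held. A full p53 site was taken as 2 half-sites at most 1 base apart, with up to 3 mismatches but the core C and G of each kept. None of the 6 windows held one, and 2.28% of all windows did. This says only that these letters are not in these windows.

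The libraries held 7.16 to 29.0 M reads over the genes of the table. The 40 libraries came from 13 mice, and all Tg libraries came from the same 3 of them. FMTg replicates 4 and 5 of each tissue had fewer genes with reads than the other 6 libraries, 12004 and 13937 against 15406 to 16465 in the pancreas. In kidney and heart they were the deepest libraries (26.9 and 27.9 M reads, and 25.6 and 29.0 M). They still had fewer genes there, 15678 to 15699 against 16370 to 16489 in the kidney and 15254 to 15476 against 16351 to 16966 in the heart. The labels give no sex. Summed reads of the 4 Y-linked genes Ddx3y, Uty, Kdm5d and Eif2s3y were 323 to 6907 in the 9 libraries of the 5 mice that gave no ovary, all FMTg, and 0 to 38 in the other 31. These 9 libraries are FMTg replicates 4 and 5 of kidney, heart, small intestine and pancreas, and pancreas FMTg replicate 1. Results are therefore also given without replicates 4 and 5, or for mice with an ovary library, where this changes them. The summed markers of each tissue's own cells were higher there than in any other tissue, except that the ovarian list reached 2497 normalised reads in a kidney Tg library and was 2410 in the lowest ovary library. Ovary Tg replicate 1 held 14.3% of its reads in the 6 pancreatic acinar markers, against at most 3.00% in any other ovary library. Of the 3 Tg ovaries it had the highest Pidd1 and the lowest Apaf1 and Casp2 in normalised reads. Per kb of exon and per M reads its Pidd1 was instead the lowest, at 1.16 against 1.24 and 1.54. In pancreas FMTg replicate 3 the 6 kidney epithelium markers summed to 98756 normalised reads, against 111 to 1166 in the other pancreas libraries. The part of these transcripts was not tested.

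Mdm2 RNA, which checks the labels only in part, did not fall. It was higher in all 5 FMTg libraries than in all 3 Tg libraries of every tissue. The difference was 1.59 ± 0.25 (log2, SE of the limma model) in the pancreas (adjusted p = 0.0286) and 2.00 ± 0.17 in the kidney (adjusted p = 0.000685). For ovary, heart and small intestine it was 0.77 ± 0.23, 0.80 ± 0.26 and 1.30 ± 0.21, and these did not pass after adjustment. Mdm2 is itself a p53 target, and reads of the whole gene cannot tell transcripts of a recombined allele from others.

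Pidd1, the scaffold of the PIDDosome (chromosome 7, 141438113 to 141444025, minus strand, ENSMUSG00000025507.13), was higher in every FMTg library than in every Tg library of all 5 tissues, and passed the test in pancreas and kidney. In the pancreas its normalised reads (reads divided by the library's size factor) were 39.0, 46.4 and 56.1 in the Tg libraries. They were 453, 346, 301, 327 and 198 in the FMTg libraries. The lowest FMTg library was above the highest Tg library, and the Tg values rest on 19, 18 and 24 reads. Pidd1 rose 6.07-fold there (2.60 ± 0.34 log2, limma adjusted p = 0.0142; two-sided exact permutation p = 0.0179, the smallest that 3 against 5 libraries allow). Folds here and below are taken from differences on the deposited log2 scale and are not ratios of normalised reads. The mean normalised reads of Pidd1 in the pancreas were 47.2 in Tg and 325 in FMTg libraries.

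In the kidney Pidd1 was at 54.9, 49.9 and 60.6 normalised reads in Tg and at 175, 282, 186, 131 and 177 in FMTg libraries. Again no libraries of the genotypes overlapped, and Pidd1 rose 3.12-fold (1.64 ± 0.22 log2, limma adjusted p = 0.00984, exact p = 0.0179). Pidd1 was 1 of 6 members called higher in the pancreas, where 0.419% of all genes tested were called higher and 0.0262% lower. In the kidney 2 of 6 members, Pidd1 and Apaf1, were called higher, where 0.603% of genes were called higher and 0.013% lower. Both calls of Pidd1 were lost when any 1 Tg library was left out (adjusted p 0.0589 to 0.101 in the pancreas and 0.0517 to 0.0841 in the kidney), and that of the pancreas also without FMTg replicate 1 or 2 (0.0543 and 0.0519). With limma-voom on the recovered reads the adjusted p was 0.0920 and 0.0596, and for mice with an ovary library 0.0654 and 0.00675. In the joint model of all tissues, with mouse blocked, Pidd1 was called in the pancreas (adjusted p = 0.000598) and not in the kidney (0.0825). On log2 reads per M with a pseudocount of 5, which shrinks differences of low genes, Pidd1 differed by 1.24 in pancreas and 1.00 in kidney, not called in either (adjusted p = 0.406 and 0.112).

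In the other tissues Pidd1 did not pass the adjusted test, but every FMTg library was again above every Tg library. Ovary Tg libraries had 74.1, 55.2 and 68.6 normalised reads and FMTg libraries 165, 232, 216, 113 and 76.4. The lowest FMTg value, in replicate 5, lay just above the highest Tg value (1.12 ± 0.37 log2, adjusted p = 0.588, exact p = 0.0357). Heart Tg libraries had 44.1, 26.3 and 30.3 and FMTg libraries 64.1, 297, 86.9, 54.5 and 56.2. Heart FMTg replicate 2 stood apart from its group, and the difference of 1.28 ± 0.54 log2 (adjusted p = 0.760, exact p = 0.0714) was 0.86 without it. In that library the 6 cardiomyocyte markers summed to 204211 normalised reads, against 528528 to 941949.7 in the other 7 hearts. Its macrophage and fibroblast markers were the highest of the 8 hearts, and its neutrophil markers summed to 12505, against 256 to 762 in the other FMTg and 1623 to 4983 in the Tg hearts. The part of these cells in the value was not tested. Without FMTg replicates 4 and 5 the differences were 1.54 in the ovary and 1.69 in the heart.

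Small intestine Tg libraries had 91.7, 130.0 and 118 normalised reads of Pidd1, and FMTg libraries 179, 188, 268, 496 and 512. Here FMTg replicates 4 and 5 were the highest, unlike in the ovary and heart, where they were the lowest 2 of their group. The difference was 1.36 ± 0.39 log2 (adjusted p = 0.990, exact p = 0.0357) and 0.86 without those 2 libraries. No gene at all passed in the ovary or small intestine with limma (at unadjusted p below 0.05 there were 1049 and 388 genes, Pidd1 among them in both) and 3 passed in the heart, so 0.0%, 0.0% and 0.019% of genes were called higher in ovary, small intestine and heart. By limma 0 of the 6 members were called in ovary, heart and small intestine, and limma-voom also called 0, while Pidd1 alone was below an unadjusted p of 0.05 in each. The share of all genes tested whose FMTg libraries all lay above the Tg libraries was 4.68% for pancreas, 4.17% for kidney, 3.43% for ovary, 3.42% for heart and 1.69% for small intestine. Of the 6 members, 2 did so in pancreas and kidney and 1 in the other 3 tissues, and Pidd1 was among them each time.

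**Figure D1:**
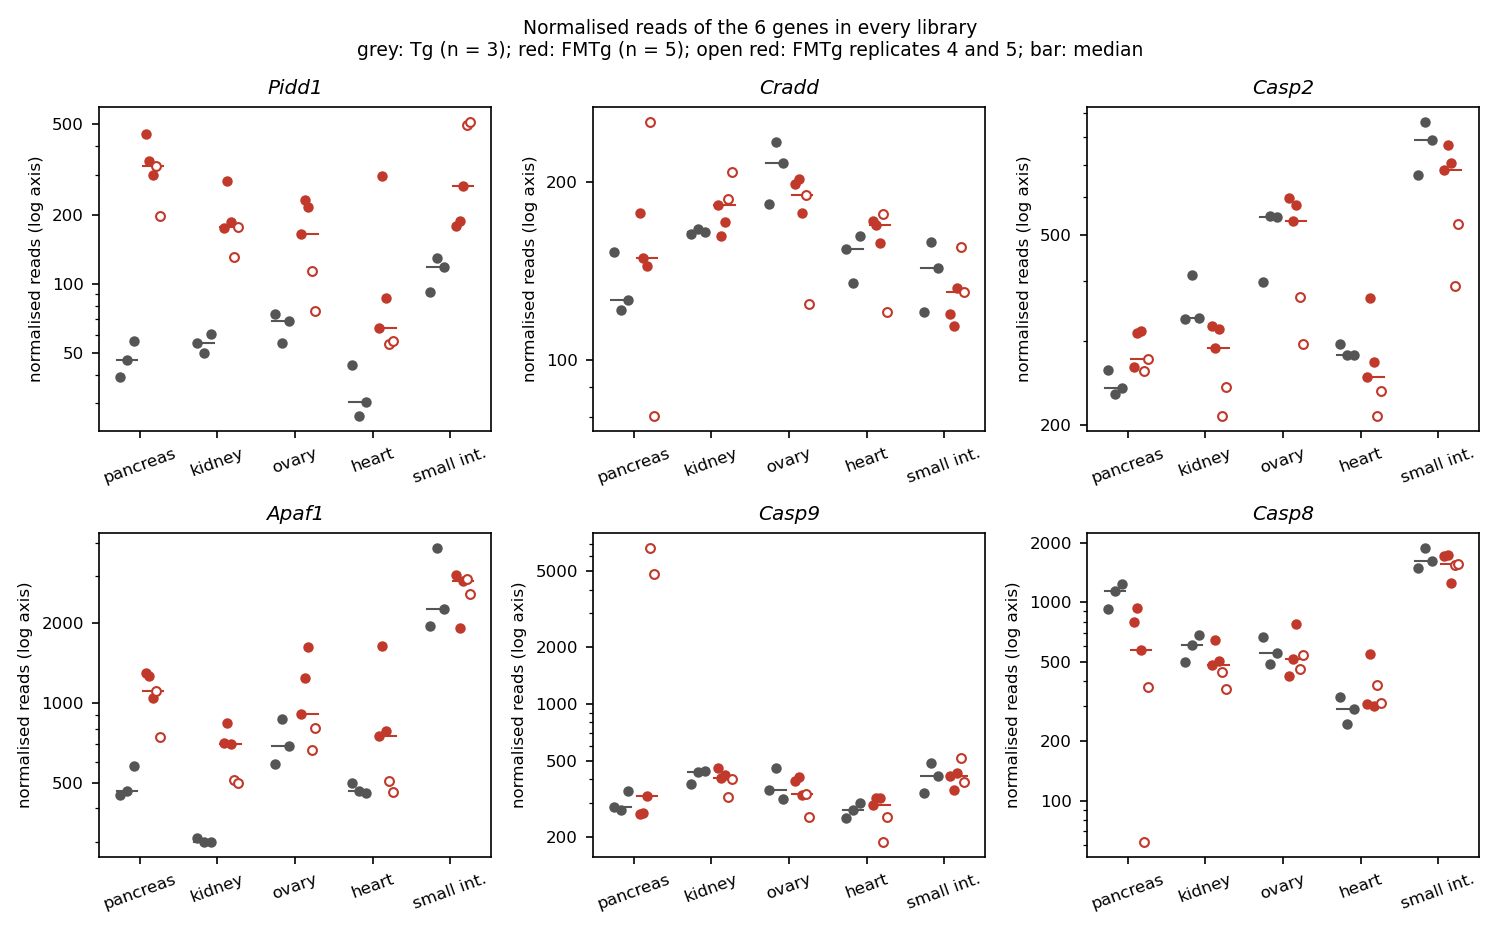
Normalised reads of each member (log axis) in all 40 libraries, by tissue; grey points are Tg (n = 3), red points FMTg (n = 5), open red points FMTg replicates 4 and 5, and bars medians. All FMTg points of Pidd1 lie above all Tg points of the same tissue, and the points of Casp9 in pancreas FMTg replicates 4 and 5 lie far above the other 38.

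Averaged over the 5 tissues in a joint model, in which libraries of a mouse share a random term, Pidd1 was 2.95-fold higher in FMTg (1.56 ± 0.25 log2, limma adjusted p = 0.000197). It was the only member of the 6 called, where 0.66% of 17284 genes were called higher and 0.0463% lower. Without FMTg replicates 4 and 5 the mean difference was 1.74 ± 0.17 (adjusted p = 3.24e-07), and Apaf1 was then called too (0.88 ± 0.13, adjusted p = 0.000128, against 0.61 ± 0.17 and 0.118 with all libraries). The F test of whether the genotype difference varied between tissues called none of the 6, and 0.133% of all genes. Its unadjusted p was 0.0269 for Apaf1, 0.0413 for Casp8 and above 0.05 for Pidd1, Cradd, Casp2 and Casp9, and adjusted p values ran from 0.515 to 1.000. The larger difference of Pidd1 in the pancreas is therefore not shown to exceed that in the other tissues.

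Some summed markers of other cells lay apart between the genotypes alongside these results. Those given here are the sums without overlap, picked from all marker lists and tissues. Single genes also lay apart, 4.68% above and 5.05% below Tg in pancreas, and 4.17% and 4.56% in kidney. These shares were 3.43% and 2.38% in ovary, 3.42% and 3.49% in heart, and 1.69% and 1.19% in small intestine. Whether the sums lay apart more often than single genes was not tested. Of the single marker genes, limma called only 2 of the 3 erythroid genes in the pancreas. In the pancreas the 3 erythroid markers summed to 1003 to 1425 normalised reads in Tg and 2984 to 7853 in FMTg libraries, and the 4 endothelial markers to 2005 to 2296 and 2589.5 to 3462. In the kidney the 3 neutrophil markers summed to 289 to 726 and 127 to 249. In the heart the 4 macrophage markers summed to 3274 to 3938 and 5783 to 16124, and the 4 fibroblast markers to 17769 to 21625 and 26796 to 105840.0. In the small intestine the macrophage markers were lower in FMTg (1443 to 2276 against 2444 to 2733), and in the ovary the 4 adipocyte markers were higher (1955 to 30014 against 1016 to 1810.1). No marker of these lists was at 0 in all libraries of a group, and their part in the results was not tested. In whole tissue, fewer cells of a type and less RNA per cell cannot be told apart.

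Cradd, the adaptor of the PIDDosome (chromosome 10, 95174746 to 95324133, minus strand, ENSMUSG00000045867.10), did not pass the test in any tissue. In the pancreas it had 152, 121 and 126 normalised reads in Tg and 177, 149, 144, 253 and 80.2 in FMTg libraries. In the kidney the values were 163, 166 and 164 and 183, 162, 171, 187 and 208. Libraries of the genotypes overlapped in all 5 tissues, and the widest spread was between pancreas FMTg replicates 4 and 5. Differences ran from -0.25 ± 0.21 log2 in the ovary to 0.18 ± 0.39 in the pancreas, with adjusted p from 0.628 to 0.990. The gene shares 149 exon bases with the antisense gene Gm48882, whose reads were not analysed here, and the strand setting of the counting is not given in the sources used here.

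Casp2, the initiator caspase of the PIDDosome (chromosome 6, 42264985 to 42282508, plus strand, ENSMUSG00000029863.13), did not pass in any tissue either. Kidney Tg libraries had 333, 412 and 334 normalised reads and FMTg libraries 323, 289, 317, 209 and 240.0. All FMTg libraries were below all Tg libraries, as for 4.56% of genes in the kidney, and FMTg replicates 4 and 5 were the lowest (-0.39 ± 0.17 log2, adjusted p = 0.564, exact p = 0.0714). No other member lay wholly below Tg in any tissue; the share of all genes that did was 5.05% for pancreas, 2.38% for ovary, 3.49% for heart and 1.19% for small intestine.

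Replicates 4 and 5 also had the lowest Casp2 values of the FMTg group in ovary, heart and small intestine. In the small intestine Tg libraries had 668, 863 and 789.5 and FMTg libraries 683, 769.6, 709, 391 and 526 (-0.36 ± 0.23 log2, adjusted p = 0.990). Without the 2 replicates the difference was -0.21 in the kidney and -0.10 in the small intestine. In the pancreas Casp2 was at 261, 232 and 238 in Tg and 264, 311, 314, 259 and 275 in FMTg libraries (0.22 ± 0.21 log2, adjusted p = 0.833). The scaffold passed the test in pancreas and kidney and its adaptor and caspase did not; whether the 3 genes differ from each other in response was not tested.

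Within a library the members can be set beside each other per kb of exon. Pidd1 had the lowest level of the 6 in 15 of 15 Tg libraries and in 8 of 25 FMTg libraries. Cradd was lowest in 15 of the 25 FMTg libraries and in 0 of 15 Tg libraries. In Tg pancreas there were 0.270 to 0.467 Pidd1 reads per kb for each Cradd read per kb, and 1.36 to 2.69 in FMTg. In the kidney this ratio was 0.315 to 0.387 in Tg and 0.735 to 1.83 in FMTg, and in the small intestine 0.802 to 0.869 and 1.57 to 4.13. The ranges did not overlap in ovary (0.248 to 0.425 and 0.629 to 1.28) or heart (0.197 to 0.301 and 0.325 to 1.85) either. Relative to Casp2, Pidd1 was at 0.233 to 0.367 in Tg pancreas and 1.12 to 2.68 in FMTg pancreas.

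**Figure D2:**
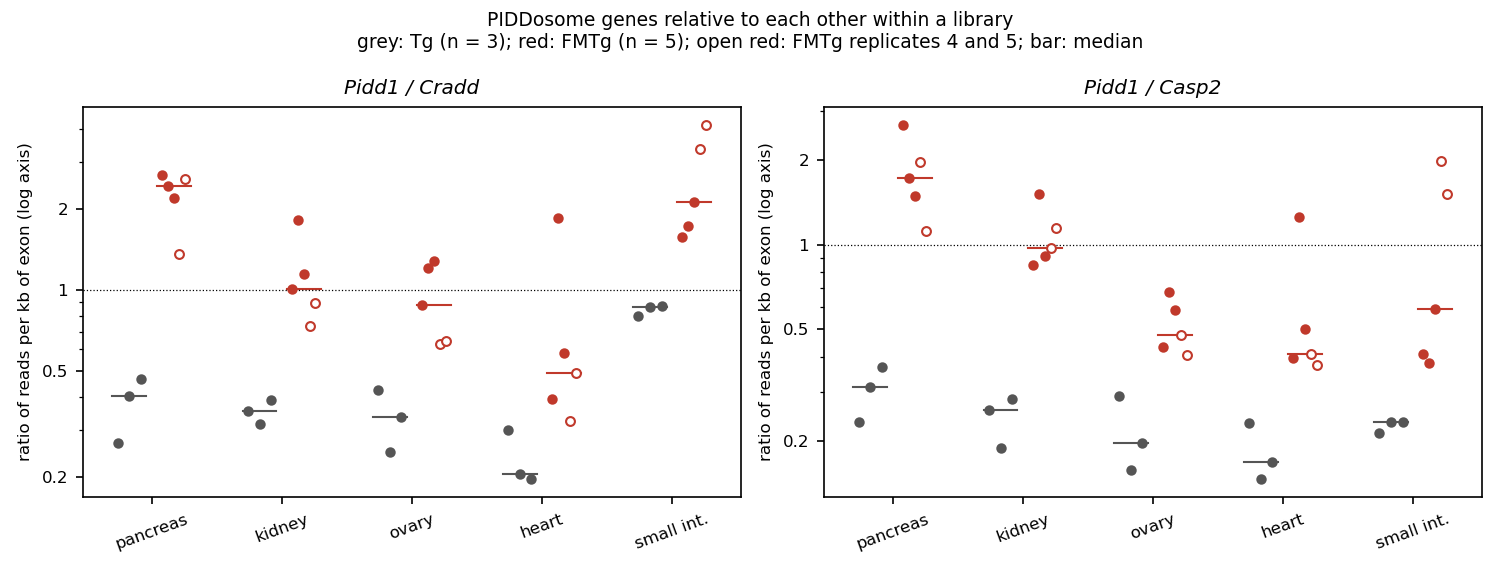
Ratio of Pidd1 to Cradd (left) and of Pidd1 to Casp2 (right) in reads per kb of exon within each library (log axis), by tissue; grey points are Tg (n = 3), red points FMTg (n = 5), open red points FMTg replicates 4 and 5, bars medians and the dotted line equal levels. Every Tg ratio is below 1, and in each tissue all FMTg ratios lie above all Tg ratios; the lowest FMTg ratio of Pidd1 to Cradd, 0.325, is in the heart.

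Apaf1, the platform of the apoptosome (chromosome 10, 90989311 to 91082770, minus strand, ENSMUSG00000019979.12), was higher in FMTg kidney and showed a difference of like size in the pancreas. Kidney Tg libraries had 309.9, 298 and 299 normalised reads and FMTg libraries 708, 838, 697, 513 and 497. The 3 Tg libraries lay close together, all below the lowest FMTg library, and Apaf1 rose 2.09-fold (1.06 ± 0.17 log2, adjusted p = 0.0303, exact p = 0.0179). FMTg replicates 4 and 5 were the lowest of their group, and without them the difference was 1.28 (adjusted p = 0.000848). The call was lost without any 1 Tg library (adjusted p 0.151 to 0.184) or without FMTg replicate 1 or 3 (0.0873 and 0.0832), with limma-voom (0.0654) and in the joint model with mouse blocked (0.172).

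In the pancreas Apaf1 was at 449, 464 and 577 normalised reads in Tg and 1293, 1260.4, 1039, 1109 and 742 in FMTg libraries. The genotypes did not overlap, but the difference of 1.10 ± 0.21 log2 missed the threshold (adjusted p = 0.0719, exact p = 0.0179). It passed without FMTg replicate 5, the lowest of its group (adjusted p = 0.0288), and without both replicates 4 and 5 (0.0186). These were the only 2 of 17 alternatives in which it passed. The limma adjusted p reached 0.372 with 1 library left out and 0.926 over all alternatives. Ovary values were 590.2, 873 and 689 in Tg and 908, 1237, 1630.0, 664 and 806 in FMTg libraries, and heart values 497, 467 and 456 and 749, 1641, 783, 507 and 462. The genotypes overlapped in the ovary through FMTg replicates 4 and 5, and in the heart through replicate 5 (0.49 ± 0.28 and 0.64 ± 0.37 log2, adjusted p = 0.833 and 0.760). Without both replicates 4 and 5 the differences were 0.78 in the ovary and 1.05 in the heart, and without heart replicate 5 alone 0.81. Without heart replicate 2, the highest of its group, the heart difference was 0.36. In ovary FMTg replicate 3, the ovary library with the most Apaf1, the 6 small intestinal epithelium markers summed to 92956 normalised reads, against 450.0 to 12149.7 in the other ovary libraries and 189654 to 251679 in Tg small intestine. Without that library the ovary difference was 0.31 for Apaf1 and 0.99 for Pidd1, and the part of these transcripts was not tested.

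In the small intestine Apaf1 was higher than in any other tissue in both genotypes and the genotypes overlapped. Tg libraries had 1947, 3845 and 2262 normalised reads and FMTg libraries 3047, 1915, 2882, 2934 and 2572. The Tg libraries alone spanned nearly the whole range, and the difference was 0.04 ± 0.24 log2 (adjusted p = 0.995), whose sign turned under several alternatives. In the heart, FMTg replicate 2 had the highest Apaf1, Pidd1 and Mdm2 of the tissue, and the kidney library of the same mouse the highest of all 3 genes in that tissue. The small intestine library of that mouse went the other way, with the lowest Apaf1 and Mdm2 of its FMTg group (1915 and 2405 normalised reads). In its pancreas and ovary libraries only Pidd1 in the ovary was the highest of the group.

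Casp9, the initiator caspase of the apoptosome (chromosome 4, 141793612 to 141815976, plus strand, ENSMUSG00000028914.13), had like values in 38 libraries, from 186 to 520 normalised reads with a median of 343. In pancreas Tg libraries it was at 287, 276 and 348 and in FMTg libraries at 262, 265, 325, 6659.7 and 4865. Only FMTg replicates 4 and 5 were high, and the difference of 1.63 ± 1.12 log2 did not pass (adjusted p = 0.772, exact p = 0.393). Without these 2 libraries it was -0.09. In the other 4 tissues differences ran from -0.13 ± 0.20 in the ovary to 0.03 ± 0.17 in the small intestine, with overlap in each (adjusted p 0.809 to 0.995). The small intestine libraries of the same 2 mice had 520 and 389.6 normalised reads.

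Casp9 shares 94 exon bases in its UTR (chromosome 4, 141814962 to 141815055) with exons on the opposite strand of Cela2a and Ctrc, which encode digestive proteases of pancreatic acinar cells. Reads of opposite-strand genes cannot be told apart unless counting used strand, which the sources used here do not give. FMTg replicates 4 and 5 also had the highest Cela2a of the 8 pancreas libraries, and the 6 acinar markers (Cpa1, Cel, Pnlip, Ctrb1, Cela2a and Prss2) made up 42.6% and 38.2% of their reads, against 21.7% to 30.1% in the other 6. Casp9 reads per 1000 Cela2a reads were 2.60 and 3.04 in the 2 libraries and 0.253 to 0.535 in the other 6. Ovary Tg replicate 1 held 221560 Cela2a reads and 281 Casp9 reads, and its 353 normalised reads of Casp9 were within the range of the other ovary libraries. The part of the shared bases in the 2 high values was not tested.

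**Figure D3:**
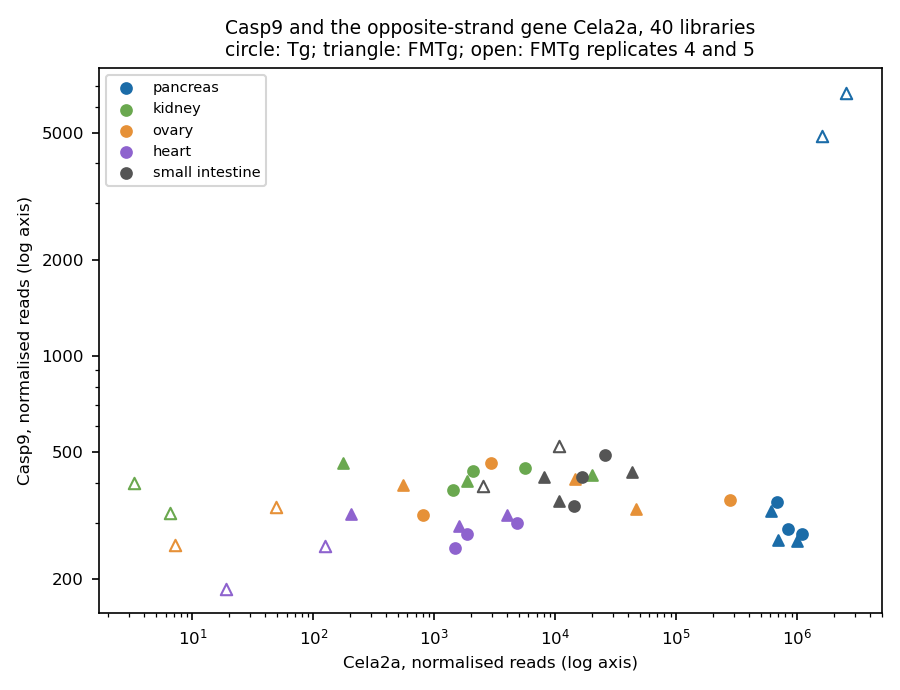
Normalised reads of Casp9 against those of Cela2a (both log axes) in the 40 libraries, coloured by tissue; circles are Tg, triangles FMTg and open symbols FMTg replicates 4 and 5. Pancreas FMTg replicates 4 and 5 stand alone at 6659.7 and 4865 Casp9 reads, while the other 38 libraries stay between 186 and 520. None of these 38 reaches the Cela2a level of the 2 high libraries, 2556505 and 1598577 normalised reads. The highest of the 38 is pancreas Tg replicate 2, at 1089984.

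Casp8, the initiator caspase of the death receptors (chromosome 1, 58795374 to 58847503, plus strand, ENSMUSG00000026029.14), passed in no tissue. Pancreas Tg libraries had 923, 1139.8 and 1233 normalised reads and FMTg libraries 800.1, 938, 577, 61.6 and 372. FMTg replicate 4, the shallowest library of the series, rested on 10 reads of Casp8, and replicate 2 overlapped the Tg range (-1.43 ± 0.74 log2, adjusted p = 0.681, exact p = 0.161). The difference was -0.78 without replicate 4 and -0.52 without replicates 4 and 5. The summed neutrophil markers, S100a8, S100a9 and Retnlg, ran from 0 to 2724 in FMTg and from 2494 to 4518 in Tg pancreas, and their part in the Casp8 values was not tested. In the other tissues differences ran from -0.29 ± 0.18 in the kidney to 0.32 ± 0.23 in the heart, all with overlap (adjusted p 0.564 to 0.990, the ovary at 0.941).

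**Figure D4:**
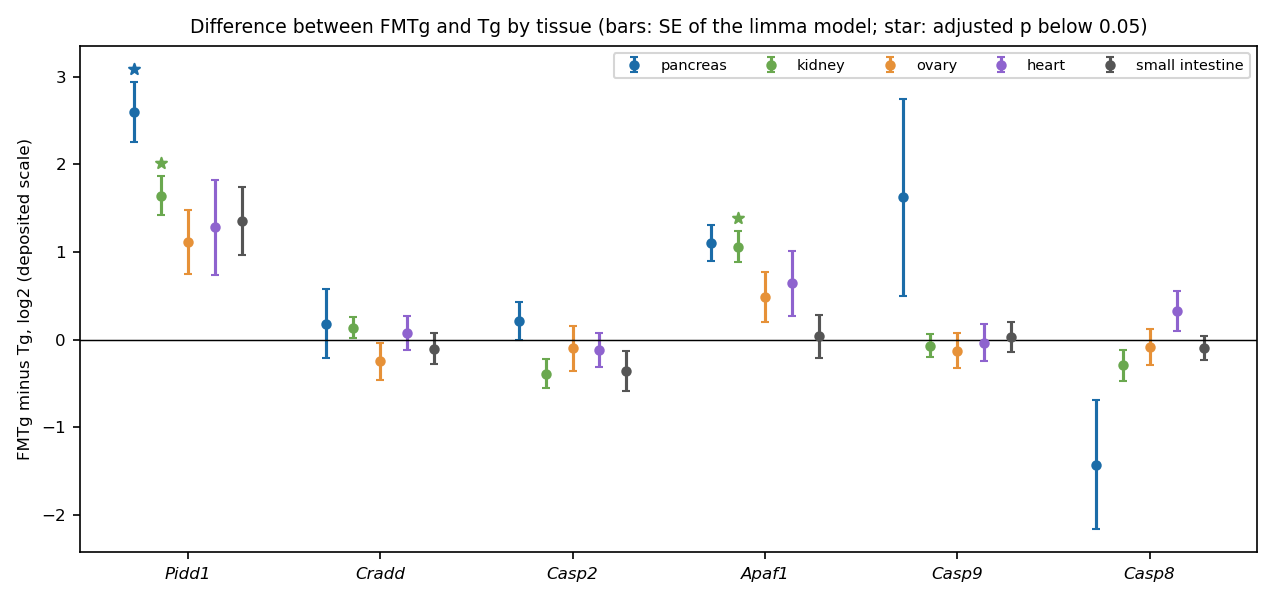
Difference between FMTg and Tg on the deposited log2 scale for each member and tissue; points are the limma estimates from 3 Tg and 5 FMTg libraries, bars the SE and stars an adjusted p below 0.05. Stars stand over Pidd1 in pancreas (2.60) and kidney (1.64) and Apaf1 in kidney (1.06), and the widest bars are those of Casp9 and Casp8 in the pancreas.

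Across the tissues of Tg mice, compared within the 3 mice, all 6 members differed in level, as did 93.8% of the 16251 genes tested. Apaf1 spanned the widest range, 3.06 log2 (F test adjusted p = 2.57e-06), from 302 ± 6.60 normalised reads (SD, n = 3) in the kidney to 2685 ± 1017 in the small intestine. Small intestine was above ovary (717 ± 143), the next tissue, by 1.85 (adjusted p = 3.60e-05). Pancreas and heart followed without differing beyond their spread (497 ± 69.7 and 473 ± 21.2, adjusted p = 0.811), and heart was above kidney by 0.64 (adjusted p = 0.0192).

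Casp8 spanned 2.51 log2 (adjusted p = 3.73e-06), with the order small intestine (1665 ± 201 normalised reads), pancreas (1099 ± 159), kidney (596 ± 93.0), ovary (572 ± 91.7) and heart (289 ± 45.4). All neighbours in that order differed except kidney and ovary (adjusted p = 0.789). Casp2 spanned 1.64 log2 (adjusted p = 7.58e-06), from 774 ± 98.4 in the small intestine through 496 ± 84.8 in the ovary, 359.8 ± 45.4 in the kidney and 285 ± 8.79 in the heart to 244 ± 15.01 in the pancreas. Only its first 2 steps passed (adjusted p = 0.00197 and 0.0147).

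Pidd1 was also highest in the small intestine of Tg mice, at 113 ± 19.6 normalised reads, above ovary at 66.0 ± 9.72 (adjusted p = 0.0209). Kidney at 55.2 ± 5.34, pancreas at 47.2 ± 8.56 and heart at 33.5 ± 9.32 followed, and no neighbours below the first step differed beyond their spread. Its range was 1.61 log2 (adjusted p = 0.000683). Cradd and Casp9 varied least, by 0.64 and 0.60 log2 (adjusted p = 0.0164 and 0.00763). Cradd ran from 133 ± 16.5 in the pancreas to 211 ± 25.4 in the ovary and Casp9 from 275 ± 24.3 in the heart to 421 ± 35.0 in the kidney, with no neighbouring tissues that differed for either gene. Without Tg replicate 2 neither was called, without replicate 1 Casp9 was not, and without replicate 3 Cradd was not.

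In RPKM, the reads per kb of exon and per M reads of the library, Casp8 was the highest of the 6 in 15 of 15 Tg and 23 of 25 FMTg libraries. In Tg small intestine Casp8 was at 41.4 ± 3.23 (SD, n = 3), Apaf1 at 21.2 ± 7.08 and Casp2 at 7.88 ± 0.709, while Casp9 was at 5.72 ± 0.816, Cradd at 2.12 ± 0.207 and Pidd1 at 1.80 ± 0.248. In Tg kidney Apaf1 was at 2.64 ± 0.113 against 6.38 ± 0.457 for Casp9. The ratio of Apaf1 to Casp9 per kb in the kidney was 0.386 to 0.469 in Tg and 0.716 to 1.19 in FMTg libraries, with no overlap. In the other 4 tissues the ranges of Tg and FMTg overlapped. They were 3.14 to 4.52 and 3.15 to 4.20 for small intestine and 0.878 to 1.14 and 1.05 to 2.98 for heart. For ovary they were 0.963 to 1.25 and 1.14 to 2.84, and for pancreas 0.900 to 0.968 and 0.0878 to 2.84. The pancreas overlap came only from FMTg replicates 4 and 5, the libraries of high Casp9, at 0.0959 and 0.0878. Pancreas FMTg replicates 1 to 3 were at 2.84, 2.74 and 1.84, above all Tg libraries of the tissue.

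The genes most like each member were found by Pearson correlation over the 40 libraries, after subtracting the mean of each tissue, among 14144 genes. These are descriptions, since libraries of a group share genotype and libraries of a mouse share the animal. For Pidd1 they were Mdm2 (0.91), Cpt1c (0.91) and Fat1 (0.91), that is the targeted gene itself, a neuronal carnitine palmitoyltransferase and an atypical cadherin. For Apaf1 they were Fat1 (0.85), Csnk1g1 (0.84) and Pidd1 (0.84), so that Pidd1 was among the 3 nearest genes to the other member that was called. Without FMTg replicates 4 and 5 the correlation was 0.93 between Pidd1 and Mdm2 and 0.90 between Apaf1 and Pidd1.

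For Casp8 the nearest genes were Ripk3 (0.92), Gpr35 (0.92) and Tmem173 (0.91), of which Ripk3 is a kinase of necroptosis and Tmem173 encodes STING. For Casp2 they were Lrig2 (0.85), Jmjd1c (0.84) and Ip6k1 (0.81), and for Cradd Rnf135 (0.75), Tbc1d22a (0.74) and Nagk (0.74). For Casp9 they were Tmem39a (0.86), Dhx34 (0.84) and AW209491 (0.81). Without FMTg replicates 4 and 5 the correlations of the Casp9 list were 0.00, -0.08 and -0.33, those of the Casp2 list 0.66, 0.79 and 0.19, those of the Cradd list 0.55, 0.34 and 0.34, and those of the Casp8 list 0.66, 0.79 and 0.63.

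Among the partners of these complexes, only the death receptors passed a test. In the kidney Tnfrsf10b, the mouse receptor for the ligand TRAIL, ran from 52.3 to 69.3 normalised reads in Tg and from 292 to 364 in FMTg libraries, a rise of 5.14-fold (2.36 ± 0.14 log2, adjusted p = 4.73e-05). Fas, the receptor for Fas ligand, ran from 119 to 164 and from 252 to 313 (0.92 ± 0.14 log2, adjusted p = 0.0193). In the death receptor list, 2 of 9 tested genes of 10 were higher in the kidney and 0 lower. Of all genes tested there, 0.603% were called higher and 0.013% lower. The median difference of the list was 0.21 against -0.05 over all genes. In the pancreas Tnfrsf10b was 103 to 213 in Tg and 335 to 495 in FMTg libraries without overlap, and missed the threshold (1.62 ± 0.29 log2, adjusted p = 0.0538). Its difference was 1.09 ± 0.25 in the small intestine (adjusted p = 0.917), while Fas was the death receptor gene of smallest p in the ovary (0.90 ± 0.33, adjusted p = 0.683) and Tradd, an adaptor of TNF receptors, in the heart (0.51 ± 0.26, adjusted p = 0.760).

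Of the 4 PIDDosome partners (Ankrd26, Ripk1, Ikbkg and Bid) none passed the limma test in any tissue. Ankrd26 in the ovary was the only 1 below an unadjusted p of 0.05, as were 1049 of the 16486 genes tested there. Medians of the list ran from -0.35 in the pancreas to 0.22 in the kidney, beside -0.05 over all genes in both. Ankrd26, which in human cells anchors PIDD1 at centrioles, had the smallest p of the list in pancreas (-0.74 ± 0.40 log2, adjusted p = 0.699) and ovary (0.60 ± 0.22, adjusted p = 0.672). Bid, a substrate of caspase-8 and caspase-2, had it in kidney (0.23 ± 0.14, adjusted p = 0.564) and small intestine (-0.47 ± 0.31, adjusted p = 0.990), and Ikbkg, a subunit of the kinase that activates NF-kappaB, in the heart (-0.23 ± 0.14, adjusted p = 0.760). None of the 10 apoptosome partners and inhibitors (Cycs, Diablo, Htra2, Xiap, Birc2, Birc3, Birc5, Aven, Endog and Aifm1) passed the limma test in any tissue, or was below an unadjusted p of 0.05. The smallest p was that of Endog, a mitochondrial nuclease, in pancreas and kidney (-1.58 ± 1.20 and 0.34 ± 0.19, adjusted p = 0.791 and 0.564), and of the inhibitors Birc3 in the ovary (-0.20 ± 0.15) and Birc2 in the small intestine (-0.37 ± 0.17), with Diablo, an antagonist of such inhibitors, in the heart (-0.23 ± 0.22).

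Of the other caspases, Casp14, a caspase of keratinocytes, did not pass in ovary (1.05 ± 0.45 log2, limma adjusted p = 0.768) or small intestine. In the small intestine it was at 1.54 to 6.67 normalised reads in Tg and 8.22 to 62.9 in FMTg libraries, without overlap (2.03 ± 0.64, adjusted p = 0.990).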

How the data were processed

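RNA was sequenced from 40 libraries of 5 tissues and 13 mice, 3 Tg and 10 FMTg, each library of a tissue from a separate mouse by the mouse numbers in the labels. Per the submitters' processing notes, the authors used STAR 2.6.0b, DESeq2 and the build GRCm38; the read counter, its strand setting and the annotation release are not given in the sources used here. The values deposited by the authors are variance-stabilised values on a log2-like scale, made jointly for the 40 libraries, each scaled by its size factor. A gene with no read has the lowest value, 1.65. Inverting the transformation gave whole reads for 100.0% of values (tolerance 0.01), from which normalised reads, reads per kb and depths (7.16 to 29.0 M reads) were taken. Gene positions and exon lengths are those of GENCODE M21 on GRCm38.

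Genotypes were compared within each tissue, 3 Tg against 5 FMTg libraries, with limma 3.58.1 in R 4.3.3, using a mean-variance trend. Tested were genes with a tissue mean 1 or more above that lowest value (all 6 members in every tissue), p-values were adjusted by Benjamini-Hochberg over all genes tested, and genes below 0.05 were called. Two-sided exact permutation tests over the 56 divisions of 8 libraries were run for each member and tissue, 30 in all and not adjusted. The differences between tissues and the mean over tissues came from 1 limma model for all 40 libraries, mouse being a random block (statmod 1.5.0), and tissue levels from the 15 Tg libraries with mouse as a fixed block. Alternatives were other scales, tests, filters and blocks, and fewer libraries. The limma tests were also run on simulated reads. These were drawn independently for each library, without a mouse effect, so they cannot check the mouse block. The genes named are the 6 members, Mdm2, the 3 genes most like each member, pathway genes called in a tissue and the gene of smallest p of each pathway list; marker, Y-linked and overlapping genes were added as checks. Part of the list of other caspases is not reported here. Members and lists were chosen with earlier results of these data known.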

Additional observations from a re-analysis of the deposited data

Results flagged for a closer look

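In 2 of the 30 groups of 5 FMTg libraries, 1 for each member and tissue, the highest or lowest library lay far from the others of its group. Chance gives about 1 in 20 groups, so a number near this would arise without any real outlier. Pidd1 in heart FMTg replicate 2 was the highest of its group at 8.25 on the deposited log2 scale. Cradd in ovary FMTg replicate 5 was the lowest of its group at 7.03.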

How the results depend on the processing

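The mean difference of Pidd1 over the 5 tissues stayed called in each alternative run. These were no mouse block, log2 reads per M with pseudocount 0.5, and no FMTg replicates 4 and 5. Leaving out a Tg mouse was not tried for this mean, although the same 3 Tg mice served all tissues. The calls of Pidd1 and Apaf1 within a tissue rested on few Tg libraries. Leaving out 1 library, 0 to 2 members were called in pancreas and in kidney, with 9 to 93 genes called for pancreas, 46 to 94 for kidney, 0 to 3 for ovary and 1 to 4 for heart (all libraries: 68, 95, 0 and 3). Signs turned over for differences near 0. These leave-one-out ranges were -0.098 to 0.096 for heart Casp9, -0.00059 to 0.16 for heart Cradd, -0.14 to 0.0071 for kidney Casp9, -0.25 to 0.057 for ovary Casp2, -0.22 to 0.034 for ovary Casp8, -0.24 to 0.026 for ovary Casp9, -0.00061 to 0.40 for pancreas Cradd, -0.16 to 0.33 for small intestine Apaf1 and -0.11 to 0.16 for small intestine Casp9. In 1 model of all 40 libraries, the genes called were 313 for pancreas, 57 for kidney, 68 for ovary, 27 for heart and 28 for small intestine, with 0 members in the kidney; Casp9 was at 0.040 (kidney), 0.078 (heart) and -0.13 (small intestine), and small intestine Apaf1 at -0.051. limma-voom called 0 members in pancreas and kidney, as did both pseudocounts on log2 reads per M reads. Pseudocount 0.5 gave 1 gene in the pancreas, 12 that differed between tissues and 60 in the mean over tissues, with Cradd at -0.0014 in the pancreas and -0.078 in that mean; it moved the median of all genes to -0.17 in the pancreas and -0.14 in the kidney. Pseudocount 5 gave 1 gene in the pancreas, 62 in the kidney and 1 in the heart. Without the mouse block, 12 genes differed between tissues and 343 genes and 2 members were called in the mean. Without the variance trend, 10 genes were called in the pancreas and 1 member in the kidney. Without FMTg replicates 4 and 5, 109 genes and 2 members were called in the pancreas and 1 gene in the heart, 8 genes differed between tissues, and 306 genes and 2 members were called in the mean, where Casp2 was at 0.042. Casp9 was then at -0.094 (pancreas), 0.033 (kidney), 0.019 (ovary), 0.17 (heart) and -0.040 (small intestine), Casp2 at 0.21 (ovary) and 0.039 (heart), and small intestine Apaf1 at -0.0033. Mice with an ovary library are the same libraries in kidney, heart and small intestine, and all libraries in the ovary; in the pancreas they gave 2 genes, 0 members and -0.041 for Casp9. The cause of these moves was not tested. Same-numbered Tg and FMTg libraries are different mice (correlations of their deviations -0.587 to 0.592), so the numbers pair nothing; with the replicate block, which drops FMTg replicates 4 and 5 for lack of a partner, 0 genes were called in pancreas and heart and 0 members in the pancreas, and the reversed differences were those without replicates 4 and 5. Depth limits Pidd1 most in Tg pancreas, where 18 to 24 reads stand behind each value, and Casp8 in pancreas FMTg replicate 4, with 10.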
